A study of Oryza sativa with 12 samples.

Results

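The 7 genes described here code for proteins with an SPX domain, or for a non-coding RNA, and belong to the phosphate (Pi) starvation system of rice. They are SPX2, SPX4 and SPX5, the membrane proteins SPX-MFS1, SPX-MFS2 and SPX-MFS3, and the RNA gene IPS1. They were chosen by their RAP identifiers out of 39967 genes in the deposited table, and the values of all transcripts of a gene were summed. Their RNA was measured by RNA-seq of leaf tissue from the rice (Oryza sativa) cultivar ZH11 and a mutant. The 12 libraries fall into 4 groups of 3 replicates each. The group phr2 no Pi comes from plants labelled as a knockout of PHR2 that were moved at 3 weeks of age to MS-based medium lacking Pi, with leaves collected on day 3. The group phr2 control is the same mutant without that treatment. WT no Pi and WT control are the corresponding ZH11 groups, called WT in the labels. All plants grew on the same kind of medium before treatment. The labels give no day of harvest for the control groups, no allele for the mutant, and no statement that replicates are separate plants. P-values therefore measure only the spread between these libraries, which may be technical.

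SPX domains bind inositol pyrophosphates, whose level follows the Pi supply of the cell. With that ligand bound, small SPX proteins hold PHR transcription factors such as PHR2 away from DNA; when Pi runs short the factor is released and switches on Pi starvation genes, several SPX genes among them. SPX-MFS proteins carry the same domain joined to a transporter domain and move Pi across the vacuolar membrane. IPS1 is a decoy for the microRNA miR399, and it is widely used in rice as a marker of Pi starvation.

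Depth ranged from 10109727 to 13122430 reads counted per library. Of the 39967 genes, 22648 with an FPKM (fragments per kilobase of transcript, scaled to library size) of at least 1 in at least 3 libraries were tested, 4 of the 7 genes among them. The targeted gene PHR2 (Os07g0438800) had 23.2, 24.2 and 29.7 FPKM in phr2 no Pi, 29.6, 26.1 and 21.4 in phr2 control, 24.8, 31.5 and 24.7 in WT no Pi, and 27.5, 17.9 and 22.1 in WT control. Its mRNA level therefore does not check the genotype labels. The library labelled phr2 no Pi replicate 3 correlated best across genes with WT no Pi replicate 2 (r = 0.968), and on average more with WT libraries (0.904) than with its own group (0.871). WT control replicate 3 was likewise nearest to the library labelled phr2 no Pi replicate 3 (r = 0.950), with a mean of 0.874 to its own group. WT control replicate 1 held the highest value of 19.5% of all tested genes. The library size implied by its FPKM was 0.674 times its reads counted, the lowest such ratio of all libraries. Its deposited FPKM values were thus high for its reads, and the part of this scaling in the 19.5% was not tested. The leaf mesophyll list, chosen by annotation words such as those for Rubisco and light-harvesting proteins, holds 44 genes with 12 listed at 0 throughout, and summed to between 46362 and 190277 FPKM in every library, against 394 to 1029 FPKM for the root list and 208 to 529 FPKM for the panicle and pollen list. The leaf sum was 46362 to 64212 FPKM in WT no Pi and 111359 to 190277 FPKM in WT control. It was 69516 to 139302 FPKM in phr2 no Pi and 97080 to 142593 FPKM in phr2 control. Its part in the results below was not tested, and in such whole-leaf RNA fewer cells of a type and less RNA per cell cannot be told apart.

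IPS1 was almost confined to a pair of phr2 libraries, one from the control group and one from plants moved to medium lacking Pi. IPS1 (INDUCED BY PHOSPHATE STARVATION 1, Os03g0146800, chromosome 3, 2609009 to 2609572, plus strand, 1 transcript) had 7.91, 0.905 and 0 FPKM in phr2 no Pi replicates 1, 2 and 3. In phr2 control replicate 1 it had 5.86 FPKM, and it was listed at 0 in the other two replicates. In WT no Pi it had 0.535 FPKM in replicate 2, and in WT control 0.487 FPKM in replicate 3, with 0 listed in the remaining WT libraries. Replicate 1 of each phr2 group was thus high whatever the Pi supply, and the ranges of all groups overlapped at 0. Behind these values stand 55 reads in phr2 no Pi replicate 1 (exact Poisson 95% interval 41.4 to 71.6) and 43 reads in phr2 control replicate 1 (31.1 to 57.9). These intervals cover counting error only. No other library had more than 6 IPS1 reads, and the 6 WT libraries had 7 together. The replicate 1 pair held 88.3% of the 111 IPS1 reads, while it held 16.4% of all reads counted. IPS1 did not reach the expression filter and was therefore not tested. In a fit with no filter its log2 difference between phr2 and WT over both Pi supplies was 0.95 (SE 0.59, limma adjusted p = 0.499).

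**Figure D1:**
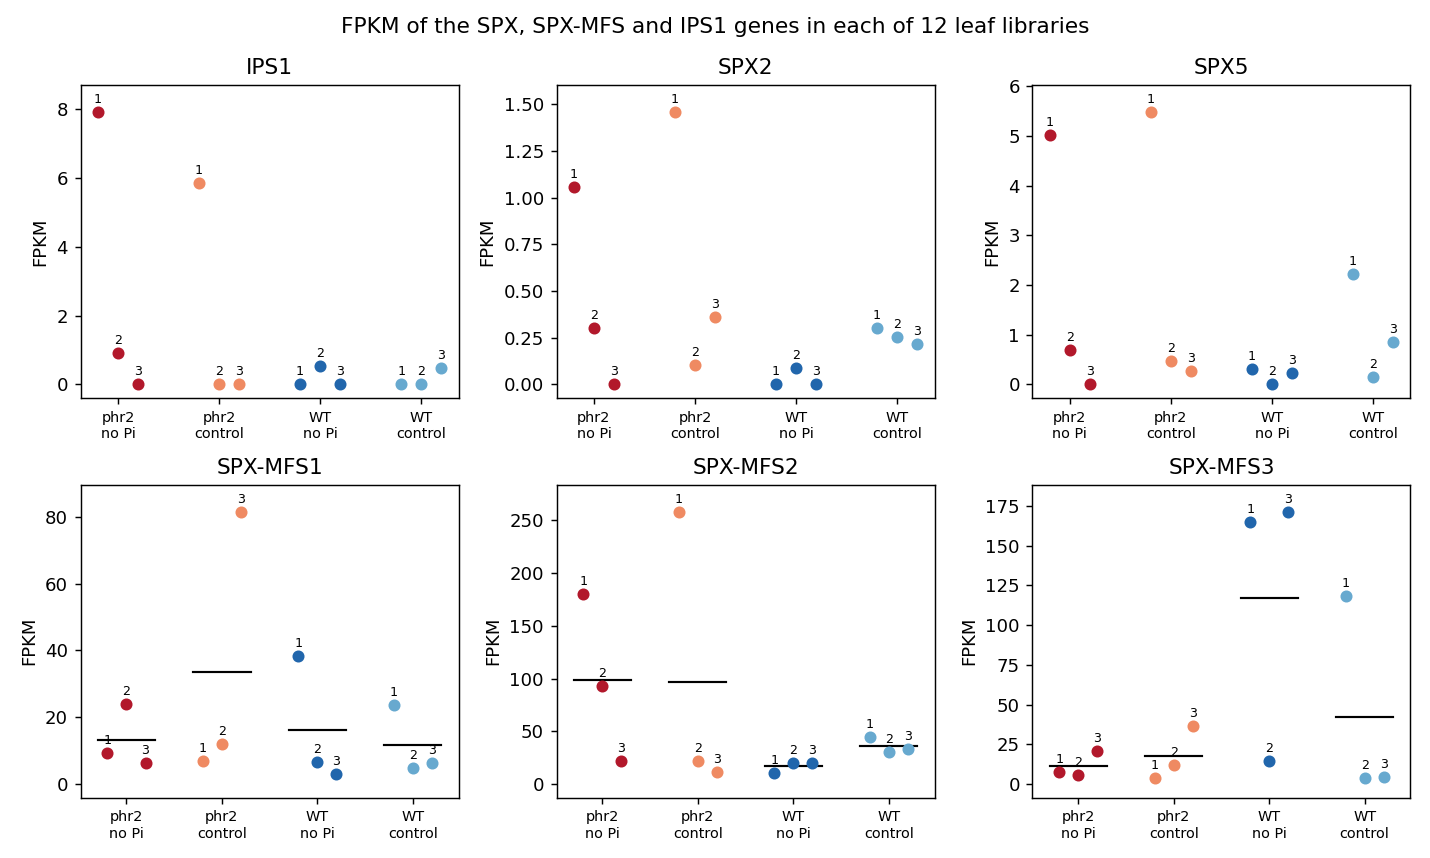
FPKM (y axis) of IPS1, SPX2, SPX5 and the 3 SPX-MFS genes in each library, by group (x axis), with the replicate number above each point and, for the SPX-MFS genes, the group mean as a line. Replicate 1 of both phr2 groups is highest for IPS1, SPX2, SPX5 and SPX-MFS2, and SPX-MFS3 is highest in WT no Pi replicates 3 and 1.

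SPX2 and SPX5 were low, and their highest values lay in the same pair of libraries. SPX2, which in rice binds PHR2 and blocks it when Pi is ample (Os02g0202200, chromosome 2, 5706636 to 5709119, plus strand, 1 transcript), had 1.06, 0.303 and 0 FPKM in phr2 no Pi. It had 1.46, 0.106 and 0.360 FPKM in phr2 control, 0, 0.0896 and 0 in WT no Pi, and 0.302, 0.256 and 0.217 in WT control. Its 41 reads over all libraries include 27 in the replicate 1 pair of phr2. The WT no Pi libraries had 0, 1 and 0 reads and the WT control libraries 2 reads each, ranges that do not overlap but lie within counting error at this depth. Among tested genes, which do not include SPX2, 12.9% were separated in that direction. SPX2 did not reach the filter, and with no filter its log2 difference, on log2(FPKM + 1), in the WT response (WT no Pi minus WT control) was −0.29 (SE 0.29, limma adjusted p = 0.631). An antisense gene, Os02g0202225, overlaps SPX2 and is listed at 0, and whether reads were assigned by strand is not given in the sources used here.

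SPX5, a further small SPX protein described in the table as a negative regulator of Pi signalling (Os03g0406100, chromosome 3, 16645244 to 16646434, plus strand, 1 transcript), had 5.02, 0.686 and 0 FPKM in phr2 no Pi. It had 5.48, 0.479 and 0.272 FPKM in phr2 control. WT no Pi gave 0.316, 0 and 0.232 FPKM, and WT control gave 2.22, 0.145 and 0.862 FPKM. Of its 137 reads, 72.3% came from the replicate 1 pair of phr2, and the next highest library was WT control replicate 1, with 13 reads. The groups overlapped in every comparison. SPX5 passed the filter only through these 3 libraries, the ones at 1 FPKM or more.

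SPX4 (Os03g0827500, chromosome 3, 34756011 to 34758767, plus strand), which holds PHR2 in the cytosol of rice cells until it is degraded under Pi shortage, is listed at 0 for both of its transcripts in all 12 libraries. SPX1, a relative of SPX2 with 2 transcripts, is listed at 0 as well. Being listed at 0 in every library was more frequent among genes with 2 transcripts in the table (34.3% of 4307) than among those with 1 (20.3% of 34488). No absence of SPX4 or SPX1 mRNA is read from these values.

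The SPX-MFS genes were far more abundant, each with reads in all 12 libraries, and their levels ran up to 44.9 times apart between libraries. SPX-MFS2 (Os02g0678200, chromosome 2, 27696289 to 27702009, plus strand, 1 transcript) is a target of the Pi-responsive microRNA miR827 in rice. It had 180, 92.6 and 22.1 FPKM in phr2 no Pi and 258, 22.0 and 11.5 FPKM in phr2 control. WT no Pi gave 10.9, 19.8 and 20.3 FPKM, and WT control gave 45.0, 30.7 and 33.5 FPKM. The pair highest for IPS1 was again highest, followed by phr2 no Pi replicate 2. That library had 6 IPS1 reads (exact Poisson interval 2.20 to 13.1) and WT no Pi replicate 2 had 4 (1.09 to 10.2). These intervals overlap, so the order of these libraries for IPS1 lies within counting error. For SPX-MFS2, WT no Pi replicate 2 ranked only 10 from the highest. WT control replicate 1 ranked 4 for SPX-MFS2 with 0 IPS1 reads, while WT control replicate 3 ranked 5 for both genes. The other 3 phr2 libraries lay at 11.5 to 22.1 FPKM, within the WT range of 10.9 to 45.0 FPKM. Group means were 98.3 ± 79.2 FPKM in phr2 no Pi, 97.1 ± 139 in phr2 control, 16.98 ± 5.29 in WT no Pi and 36.4 ± 7.57 in WT control (SD, n = 3 each).

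In WT, all 3 libraries without Pi lay below all 3 control libraries for SPX-MFS2, by a log2 difference of −1.09 (SE 0.98, 95% interval −3.22 to 1.05, limma adjusted p = 0.513). Such separation without overlap was common, with 12.9% of all tested genes separated downwards and 24.8% in either direction. The separation also depends on the scale. When FPKM was recomputed with the reads counted in each library as its size, WT no Pi gave 10.6, 24.0 and 23.2 and WT control 30.3, 23.3 and 31.4, so the ranges overlapped. That scale also moves the median log2 difference of all tested genes in the WT response to 0.37, against −0.01 on the deposited one. Between the genotypes without Pi, all 3 phr2 libraries lay above all 3 WT libraries, as did 5.96% of tested genes. The lowest phr2 value, 22.1 FPKM, came from the library labelled phr2 no Pi replicate 3, beside 20.3 FPKM for the highest WT library. The log2 difference was 2.07 (SE 0.98, limma adjusted p = 0.583). It was 1.42 without phr2 no Pi replicate 1 (limma adjusted p = 0.956) and 2.90 without the library labelled phr2 no Pi replicate 3 (limma adjusted p = 0.204).

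SPX-MFS3, described in the table as a vacuolar Pi efflux transporter (Os06g0129400, chromosome 6, 1554861 to 1561163, plus strand), had all of its reads on 1 of 2 annotated transcripts. It had 7.47, 5.96 and 20.6 FPKM in phr2 no Pi and 3.81, 12.1 and 36.6 FPKM in phr2 control. WT no Pi gave 165, 14.4 and 171 FPKM, and WT control gave 118, 4.07 and 4.37 FPKM. WT no Pi replicates 1 and 3 and WT control replicate 1 were high, and every other library lay at 36.6 FPKM or lower. With the reads counted as library size, WT control replicate 1 had 79.7 FPKM. Group means were 11.3 ± 8.03 FPKM in phr2 no Pi, 17.5 ± 17.1 in phr2 control, 117 ± 88.7 in WT no Pi and 42.2 ± 65.9 in WT control (SD, n = 3 each). The lowest value of all 12 libraries belonged to phr2 control replicate 1, the highest library for SPX-MFS2. Its log2 difference between phr2 and WT without Pi was −2.81 (SE 1.27, unadjusted p = 0.0473, limma adjusted p = 0.572). In the WT response it was 2.36 (SE 1.27, limma adjusted p = 0.267). The WT response depended on the scale and on single libraries. With libraries rescaled to equal FPKM sums it was 2.86 (limma adjusted p = 0.136). It was 3.04 in a voom fit on recovered reads (limma adjusted p = 0.133) and 2.82 on reads counted (limma adjusted p = 0.145). These scales also move the median of all tested genes, to 0.40, 0.48 and 0.37. It was 1.59 without WT control replicate 2 (limma adjusted p = 0.603), 1.63 without WT control replicate 3 and 3.87 without WT control replicate 1 (limma adjusted p = 0.106).

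SPX-MFS1 (Os04g0573000, chromosome 4, 28862600 to 28868988, plus strand, 1 transcript), the other miR827 target of the group, followed neither pattern closely. It had 9.19, 24.1 and 6.32 FPKM in phr2 no Pi and 6.84, 12.01 and 81.5 FPKM in phr2 control. WT no Pi gave 38.4, 6.75 and 3.17 FPKM, and WT control gave 23.6, 4.80 and 6.35 FPKM. Replicate 1 led in both WT groups, replicate 2 in phr2 no Pi and replicate 3 in phr2 control, and all groups overlapped. Group means were 13.2 ± 9.54 FPKM in phr2 no Pi, 33.4 ± 41.7 in phr2 control, 16.1 ± 19.4 in WT no Pi and 11.6 ± 10.4 in WT control (SD, n = 3 each). The SD of phr2 control rests on replicate 3, at 81.5 FPKM. The identifiers fix which gene is meant, since Swiss-Prot entries in the table number SPX-MFS1 and SPX-MFS2 the other way round.

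Which SPX-MFS gene was most abundant differed between libraries. The summed FPKM of all 3 was highest in phr2 control replicate 1, at 269, and lowest in WT control replicate 2, at 39.6. SPX-MFS2 made up 91.5%, 75.5% and 45.1% of that sum in phr2 no Pi and 96.0%, 47.7% and 8.86% in phr2 control. It made up 5.08%, 48.3% and 10.4% in WT no Pi, and 24.1%, 77.6% and 75.7% in WT control. Such a share does not depend on how a library was scaled. The ratio of SPX-MFS2 to SPX-MFS3 was highest in phr2 control replicate 1 (67.7) and lowest in WT no Pi replicate 1 (0.0660). Without Pi it was 24.1, 15.5 and 1.08 in phr2 and 0.0660, 1.37 and 0.119 in WT. Those groups overlapped only through the library labelled phr2 no Pi replicate 3 and its nearest library, WT no Pi replicate 2. The control libraries gave 67.7, 1.81 and 0.314 in phr2 and 0.380, 7.56 and 7.66 in WT. There, WT control replicates 2 and 3 lay above phr2 control replicates 2 and 3, so the ratio did not separate the genotypes. This ratio was chosen after the values were seen and is given without a test.

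**Figure D2:**
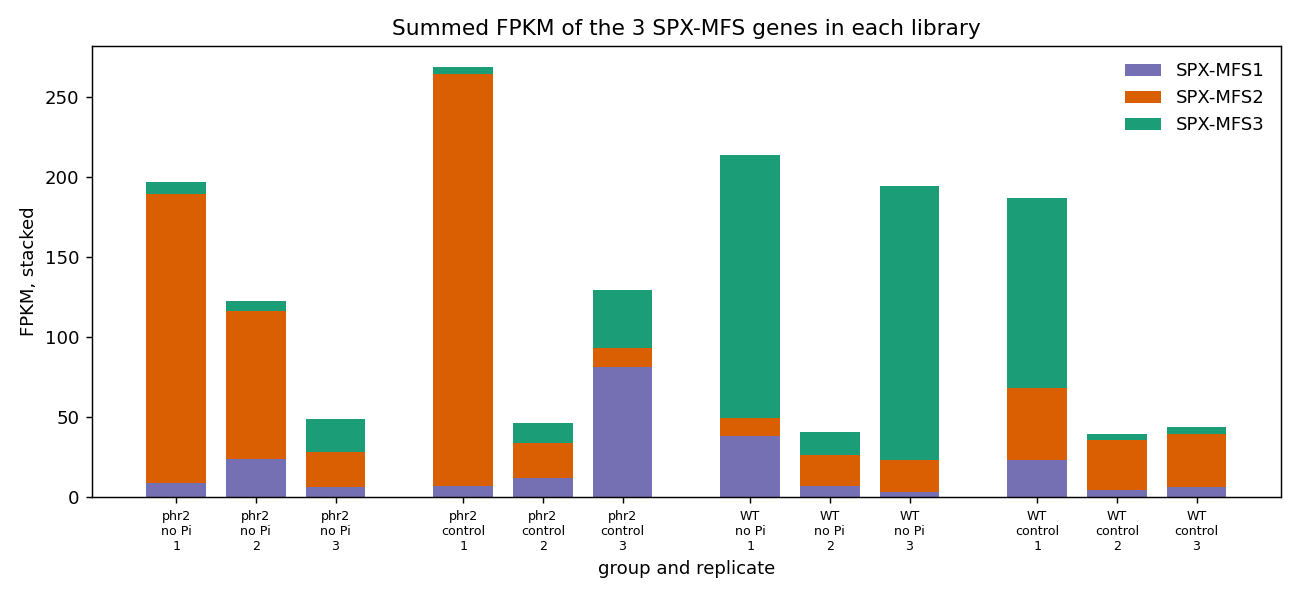
Stacked bars of the FPKM (y axis) of SPX-MFS1, SPX-MFS2 and SPX-MFS3 in each library (x axis, group and replicate). SPX-MFS2 fills 96.0% of the bar of phr2 control replicate 1, while SPX-MFS3 fills 87.9% of that of WT no Pi replicate 3 and 77.0% of that of WT no Pi replicate 1.

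The order of the libraries was most alike for SPX2 and SPX-MFS2, where a library's rank among the 12 differed by 1.67 places on average. For SPX-MFS2 the mean rank difference was 2 to both SPX5 and IPS1, and for SPX5 and IPS1 it was 2.33. SPX-MFS3 stood farthest from these 4 genes, at 4.83 to 5.5 places. SPX-MFS1 was 3 places from SPX2, 3.17 from SPX-MFS3, 3.33 from SPX5, 4 from IPS1 and 4.17 from SPX-MFS2. For comparison, the median over all named tested genes was 4 places from each tested member. Replicate 1 of phr2 no Pi and of phr2 control were the top 2 libraries for 4 of the 6 genes with reads (IPS1, SPX2, SPX5 and SPX-MFS2). Among tested genes the same held for 2 of the 4 members (SPX5 and SPX-MFS2), for 4 of 114 genes of the Pi lists (3.51%) and for 289 of all 22648 (1.28%). SPX5 passed the filter only through this pair and WT control replicate 1. Its place among the 2 of 4 was therefore close to fixed by the filter, and that count is no measure of an excess. This pair was chosen after the values were seen, and the points share the same 12 libraries and their scaling. Over all tested genes the libraries of this pair were also each other's nearest (r = 0.936). That likeness was not particular to them. For phr2 no Pi replicate 2 the nearest was phr2 control replicate 1 (r = 0.935), and for phr2 control replicate 2 it was phr2 no Pi replicate 1 (r = 0.925). With group means taken out, the deviations of the phr2 replicate 1 pair correlated at −0.24 over all tested genes. That was the lowest value between a phr2 no Pi and a phr2 control library.

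**Figure D3:**
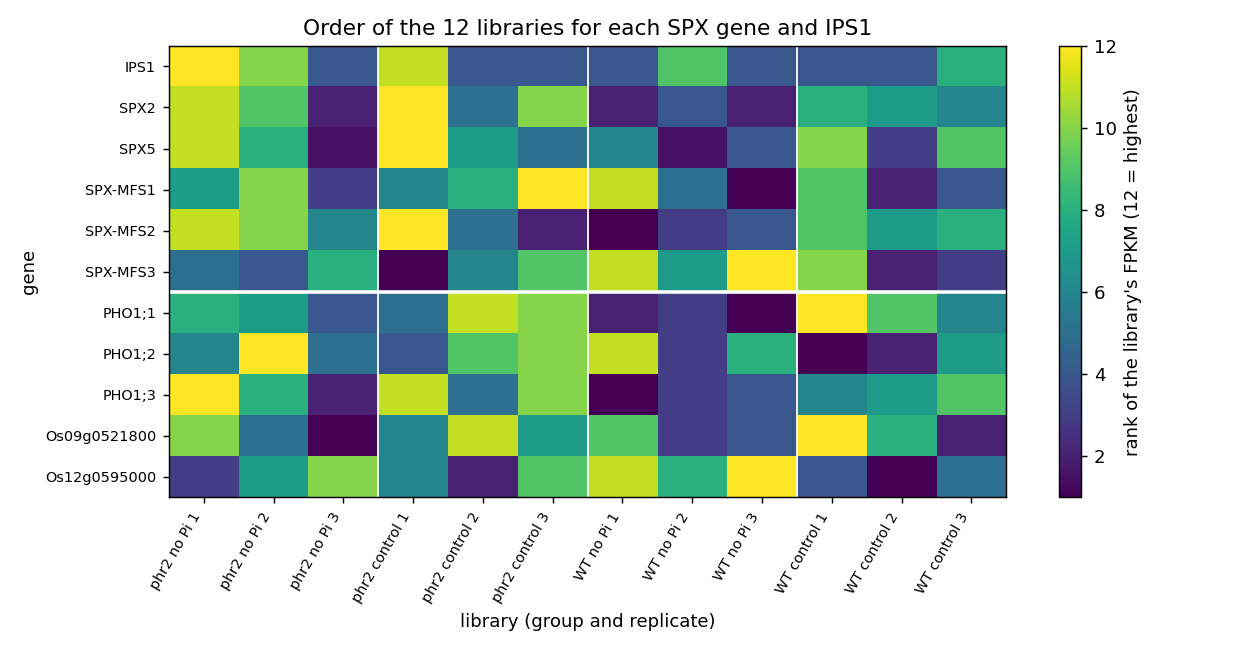
Rank of each library (x axis, group and replicate) for IPS1, SPX2, SPX5, the SPX-MFS genes and, under the white line, the other tested genes with SPX in their annotation, with 12 as the highest FPKM (colour). IPS1, SPX2, SPX5, SPX-MFS2 and PHO1;3 share their 2 highest libraries, phr2 no Pi replicate 1 and phr2 control replicate 1. All genes under the white line except PHO1;3 are highest in other libraries.

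None of the 4 tested genes passed in any of 7 comparisons at a Benjamini-Hochberg adjusted limma p under 0.05 over all genes. In the WT response, where 2.36% of tested genes passed, SPX5 had a log2 difference of −0.69 (SE 0.72) and SPX-MFS1 of 0.09 (SE 0.99). In the phr2 response (phr2 no Pi minus phr2 control) 0% of genes passed (0 at an adjusted p under 0.05, 885 at an unadjusted one), and the 4 genes lay between −0.72 for SPX-MFS1 and 0.80 for SPX-MFS2. Between phr2 and WT in control medium, with 0.667% passing, they lay between −0.15 for SPX-MFS3 and 1.00 for SPX-MFS1. Without Pi, where 0% passed between the genotypes (1963 genes at an unadjusted p under 0.05), 1 of the 4, SPX-MFS3, had an unadjusted p under 0.05, beside 8.67% of all tested genes. The difference of the responses, which 0% of genes passed (2002 at an unadjusted p under 0.05), was 1.88 (SE 1.38) for SPX-MFS2 and −2.66 (SE 1.80) for SPX-MFS3. Over both genotypes the no Pi libraries differed from control at 0.053% of genes, and the 4 genes lay between −0.39 for SPX5 and 1.03 for SPX-MFS3. The voom fit on recovered reads also called 0 of the 4 in each comparison.

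Averaged over both Pi supplies, phr2 and WT differed at 1.22% of genes, again with none of the 4. That count of 277 genes was 0 with equal FPKM sums, with voom and on reads counted, and 1550 without the library labelled phr2 no Pi replicate 3. SPX-MFS2 had a log2 difference of 1.13 (SE 0.69, limma adjusted p = 0.430) and SPX-MFS3 of −1.48 (SE 0.90, limma adjusted p = 0.428). Without the phr2 replicate 1 libraries, left out after their values were seen, the SPX-MFS2 difference was 0.15 (SE 0.42, limma adjusted p = 0.920), and without phr2 control replicate 1 alone it was 0.48 (limma adjusted p = 0.705). For phr2 control minus WT control it was then −1.12, against 0.19 with all libraries. The intervals are wide: for SPX-MFS2 in the WT response they allow values from −3.22 to 1.05, so these p-values do not show that the genes were equal between groups.

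**Figure D4:**
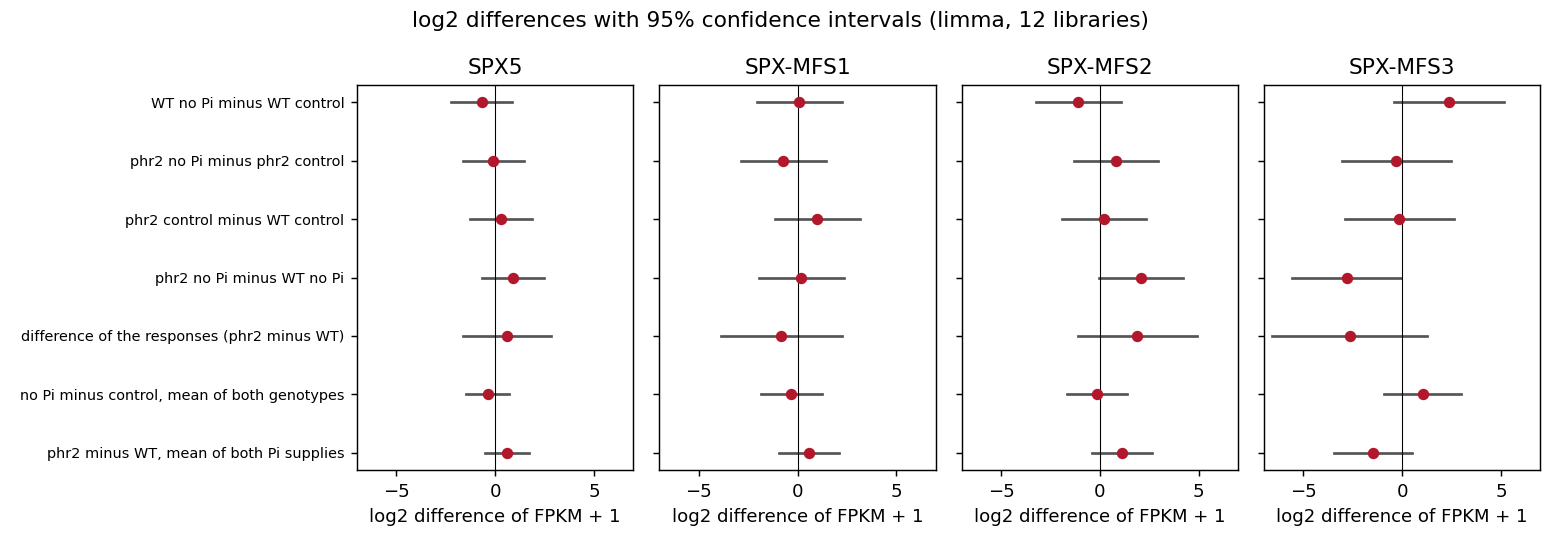
log2 differences of FPKM + 1 (x axis, points) with 95% confidence intervals (lines) from limma for the 4 tested genes in 7 comparisons (y axis). All intervals include 0 except that of SPX-MFS3 for phr2 no Pi minus WT no Pi, which ends at −0.04 and has an adjusted p of 0.572.

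Another 15 genes carry the word SPX in their annotation, and 7 of them are listed at 0 throughout. None of the 5 that were tested passed in any comparison. PHO1;3 (Os06g0493600), of a family of Pi exporters with an SPX domain, had 19.8, 4.58 and 2.06 FPKM in phr2 no Pi and 18.1, 3.12 and 6.46 FPKM in phr2 control. WT no Pi gave 1.01, 2.55 and 2.56 FPKM, and WT control gave 3.43, 4.56 and 5.31 FPKM. Its highest libraries were the phr2 replicate 1 pair, and its log2 difference between the genotypes over both supplies was 0.95 (limma adjusted p = 0.338). An antisense transcript of PHO1;3 (Os06g0493700) had 1 read. PHO1;1 (Os01g0110100) had a log2 difference of −1.33 in the WT response (limma adjusted p = 0.0778). PHO1;2 (Os02g0809800), the root-to-shoot exporter, had 0.56 there (limma adjusted p = 0.456), Os09g0521800, a further SPX membrane protein, had −0.68 (limma adjusted p = 0.424), and Os12g0595000, an EXS-domain protein, had 0.97 (limma adjusted p = 0.161). Unlike PHO1;3, PHO1;1 and Os09g0521800 were highest in WT control replicate 1, PHO1;2 in phr2 no Pi replicate 2 and Os12g0595000 in WT no Pi replicate 3. Among the small SPX genes, SPX3 (Os10g0392600) had 6 reads in all and SPX6 (Os07g0614700) 16, too few for a test. SPX3 was highest in phr2 no Pi replicate 1, at 0.486 FPKM, and SPX6 in phr2 no Pi replicate 2, at 0.724 FPKM.

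Of the wider Pi starvation system, taken by annotation words, 1 gene fell in each of 3 lists in the WT response. Over all tested genes 217 rose (0.958%) and 317 fell (1.4%), a balance that turns with the scaling: 937 rose and 156 fell with equal FPKM sums, 834 and 125 with voom, and 1112 and 179 on reads counted. For Pi signalling, 0 of 18 tested genes rose, 1 fell and 17 did not pass, with a median log2 difference of 0.06 against −0.01 over all tested genes. The gene that fell, Os03g0343400 (log2 difference −1.98, limma adjusted p = 0.0301), is described as a blue-light photoreceptor and shares only the letters PHR2 with the transcription factor. For Pi transport, a list that also holds sugar phosphate transporters and 3 genes of the signalling list, 0 of 63 rose and 1 fell. That was a mitochondrial phosphate carrier, Os03g0263400 (−1.75, limma adjusted p = 0.0442). Among purple acid phosphatases, which release Pi from organic compounds, 0 of 18 rose and 1 fell, PURPLE ACID PHOSPHATASE 10D (Os12g0637200, −2.54, limma adjusted p = 0.0442). Among galactolipid, sulfolipid and glycerophosphodiester enzymes, 0 of 18 passed, and the smallest p was that of DIGALACTOSYLDIACYLGLYCEROL SYNTHASE 1 BETA (Os04g0416900, 1.49, limma adjusted p = 0.141). The medians of the last 3 lists were 0.23, −0.07 and 0.11.

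Between phr2 and WT over both supplies, no gene of the 4 lists passed. The smallest p-values were those of TIFY GENE 11C (Os03g0180900, a jasmonate signalling repressor, log2 difference −3.55, limma adjusted p = 0.138) and GLYCEROL-3-PHOSPHATE TRANSPORTER 2 (Os06g0179900, −1.69, limma adjusted p = 0.0672). In the other lists they were those of PURPLE ACID PHOSPHATASE 1C (Os12g0576700, −1.60, limma adjusted p = 0.124) and Os02g0588500, a glycerophosphodiesterase-type protein (−3.32, limma adjusted p = 0.0824). The list medians were 0.19, 0.02, −0.20 and 0.07, beside 0.02 over all tested genes.

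Genes whose order of the 12 libraries was most like that of a member were found by the mean difference in rank. For SPX-MFS3 these were Os05g0110900, a receptor-like cytoplasmic kinase of chitin-triggered immunity, and Os12g0446500, a FACT complex subunit, both at 0.500 places. For SPX-MFS1 they were Os08g0467500, an HVA22-type protein, at 0.750 places and the sugar transporter SWEET6A (Os01g0606000) at 1.17. For SPX-MFS2 they were Os07g0477000, with an RNA polymerase Rpb7 domain, at 1.33 and the sucrose-phosphatase gene Os01g0376700 at 1.5. For SPX5 they were Os01g0142200, a CGI-121 domain protein, and PLASTIDIC GLYCOLATE/GLYCERATE TRANSLOCATOR 2 (Os10g0578800), both at 1.42. These are the closest of all named or described tested genes over 12 libraries, given as a description.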

How the data were processed

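The authors deposited 1 table of FPKM for 46947 transcripts and 12 libraries. The tools named, per the submitters' processing notes, are Bowtie 0.12.2, StringTie 1.3.0 and HISAT2 2.0, with no role given. The notes name the build mm8, a mouse build; the table carries rice RAP identifiers, and the rice assembly is not given in the sources used here, so coordinates are the table's. Lengths were multiples of 3 for 93.8% of coding rows, so they are coding lengths. Each FPKM value times length was a whole multiple of 1 read's worth in its library (100% at a tolerance of 0.01), which gave reads. The library size implied by FPKM was 0.674 to 1.21 times the reads counted.

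FPKM was summed over transcripts, filtered at 1 FPKM in 3 libraries, and put on the log2(FPKM + 1) scale. Tests were run in R 4.3.3 with limma 3.58.1 (4 group means, 12 libraries, variance trend, 8 residual degrees of freedom). This scale understates changes of low genes. The fit was tested on simulated data. Replicate numbers did not consistently pair the libraries. Members, lists and alternatives were chosen with earlier results of these data known. The genes named beside the members are PHR2, genes annotated with SPX, the gene with the smallest p of each list in the WT response and in the pooled genotype comparison, and for each tested member the 2 named or described genes with the closest library ranks. Descriptions and plots used pandas 2.3.3, matplotlib 3.10.9 and Python 3.11.15.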

Additional observations from a re-analysis of the deposited data

How the results depend on the processing

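No SPX or SPX-MFS gene was called in any of the 7 comparisons under any alternative run. That includes voom and the fit with the replicate number as a block (0 called in each). The same numbers did not consistently pair libraries. Correlations of deviations from the group means ran from −0.43 to 0.30 between same-numbered libraries. Between WT no Pi and WT control they were 0.26, 0.08 and 0.17 for replicates 1, 2 and 3. Over all genes the count called ran from 0 to 3157 in the WT response and from 0 to 1976 for phr2 minus WT over both Pi supplies. Of 28 log2 differences, 15 kept their sign throughout. For phr2 control minus WT control, SPX-MFS3 became 0.21 with equal FPKM sums, 0.077 with quantile normalization, 0.32 with voom and 0.23 on reads counted. It became 1.36 without WT control replicate 1 and phr2 no Pi replicate 3, and 0.59 without replicate 1 of both phr2 groups, where SPX-MFS2 became −1.12. For no Pi minus control over both genotypes, SPX-MFS2 became 0.17 with equal FPKM sums, 0.14 with voom, 0.15 on reads counted, 0.35 without the first pair of libraries (where SPX-MFS1 became 0.19) and 0.18 without the second. Both pairs and the reads-counted scale were chosen after seeing the data. The cause was not tested.

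Leaving out 1 library at a time, these signs changed. SPX-MFS1 ran from −0.84 to 0.78 in the WT response, −1.41 to 0.29 in the phr2 response, −0.0090 to 1.69 for phr2 control minus WT control, −0.50 to 1.12 for phr2 no Pi minus WT no Pi, −1.51 to 0.19 for the difference of the responses and −0.78 to 0.19 for no Pi minus control. SPX-MFS2 ran from −0.078 to 2.11 in the phr2 response, −1.12 to 1.06 for phr2 control minus WT control and −0.58 to 0.51 for no Pi minus control. SPX-MFS3 ran from −1.04 to 0.45 in the phr2 response and −0.92 to 1.36 for phr2 control minus WT control. SPX5 ran from −0.52 to 0.47 and from −0.090 to 0.70 in those comparisons, with no value where it fell below the filter. With their sign kept, SPX-MFS3 ran from 1.59 to 3.87 in the WT response, −3.96 to −2.22 for phr2 no Pi minus WT no Pi and −2.06 to −0.73 for phr2 minus WT, and SPX-MFS2 from 1.42 to 2.90 and from 0.48 to 1.57 in the last 2 comparisons. The few reads of IPS1, SPX2 and SPX5 limit what these genes can show.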
